A study of Mus musculus with 5 samples.

Results

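Collagen genes were taken from the RNA sequencing of mouse thyroid tumor cell lines labelled BVE-Ctnnb1wt and BVE-Ctnnb1null. They are all genes whose symbol is Col, a type number, the letter a and a chain number. Of 17923 genes listed in at least 1 library, 41 were collagen genes. The RefSeq gene table holds 44 such symbols, and Col6a6, Col19a1 and Col25a1 were not listed in any library. The study compared tumor cells carrying BRAFV600E, an activated form of the kinase BRAF, with tumor cells carrying BRAFV600E and a deletion of Ctnnb1, the gene of β-catenin. Both groups therefore carry BRAFV600E, and the cells came from tumors of donor mice and were immortalized by long culture in medium with serum and thyroid stimulating hormone (TSH).

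The wt group held 2 libraries of a line named BVE at passage 20, of which replicate 1 is described as grown without TSH and replicate 2 with TSH. The null group held 3 libraries with different line names. Replicate 1 was BVECTN_4 at passage 8 without TSH, replicate 2 was BVECTN_4A at passage 11 and replicate 3 was BVECTN_5 at passage 7, with no TSH status stated for the last 2. The protocol text gives higher passage numbers for both groups than these sample descriptions. Genotype, line and passage cannot be told apart, and separate cultures are not stated, so p-values measure only the spread between these libraries. In the order of their replicate numbers, the wt group had totals of 30432737 and 30713079 estimated counts, and the null group 29929677, 29360002 and 29415980. All values below follow that order. FPKM, fragments scaled to transcript length and library depth, is the scale on which levels of different genes are compared.

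Collagens are mostly secreted proteins whose chains wind into a triple helix. Fibrillar collagens such as types I, III and V form the fibrils of connective tissue and are the main matrix product of fibroblasts. Type IV collagen forms the sheet of the basement membrane on which epithelial cells, including those of thyroid follicles, rest. Type VI forms beaded filaments, types VIII and X form short-chain networks, FACIT collagens sit on the surface of fibrils, and the multiplexins (types XV and XVIII) lie in basement membrane zones.

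Ctnnb1 itself was not lower in the libraries labelled null. Its counts were 6432 and 8043 in wt and 13568, 20510 and 12285 in null. Its FPKM was 59.3 and 73.8 in wt and 125, 196 and 118 in null, so that on this scale the lowest null value exceeded the highest wt value. After TMM scaling the CPM (counts scaled to library depth) of the groups overlapped, with a log2 fold change of 0.55 (SE 0.44, adjusted p = 0.517 by the quasi-likelihood test of edgeR with Benjamini-Hochberg adjustment). Whole-transcript values cannot show whether single exons were lost. Directions below are therefore between libraries labelled null and libraries labelled wt.

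Promoter sequences of 6 collagen genes are shown first, chosen for the levels of these genes described below. Col1a2 and Col3a1 had the widest range among the abundant fibrillar genes, and Col4a1 and Col4a2 are a neighbouring pair whose levels stayed close. Col18a1 had a larger share from a second start site in 1 library, and Col8a1 was higher in all 3 null libraries. The windows are from the RefSeq promoter table (build GRCm38.p6) and run from 250 bases before to 50 bases after a gene's start, written 5′ to 3′ on the gene's strand. Capitals mark the motifs found in the window, each searched on both strands: the TATA box TATAAA, the box named for its letters CCAAT, the GC box GGGCGG, the core CTTTGA that TCF/LEF partners of β-catenin bind, and the AP-1 site TGANTCA. Motifs in these windows did not overlap each other.
Col1a2, chr6:4505368-4505667, plus strand: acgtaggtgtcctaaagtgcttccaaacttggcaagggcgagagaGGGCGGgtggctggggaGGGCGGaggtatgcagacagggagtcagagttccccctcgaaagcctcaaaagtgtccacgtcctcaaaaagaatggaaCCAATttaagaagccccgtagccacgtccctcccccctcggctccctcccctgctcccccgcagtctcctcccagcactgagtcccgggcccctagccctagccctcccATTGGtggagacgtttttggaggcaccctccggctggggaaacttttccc
Col3a1, chr1:45311288-45311587, plus strand: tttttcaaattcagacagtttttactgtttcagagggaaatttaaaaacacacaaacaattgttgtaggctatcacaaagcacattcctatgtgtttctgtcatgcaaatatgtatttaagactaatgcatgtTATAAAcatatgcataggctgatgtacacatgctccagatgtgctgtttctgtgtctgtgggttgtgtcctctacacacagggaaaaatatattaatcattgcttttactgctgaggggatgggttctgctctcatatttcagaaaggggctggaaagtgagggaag
Col4a1, chr8:11312777-11313076, minus strand: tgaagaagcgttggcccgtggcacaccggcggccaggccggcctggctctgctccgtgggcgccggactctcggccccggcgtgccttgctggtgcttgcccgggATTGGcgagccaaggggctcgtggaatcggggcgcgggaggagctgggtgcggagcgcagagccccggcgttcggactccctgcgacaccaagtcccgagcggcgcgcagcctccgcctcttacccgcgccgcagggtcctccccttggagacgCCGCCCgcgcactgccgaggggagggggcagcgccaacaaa
Col4a2, chr8:11312555-11312854, plus strand: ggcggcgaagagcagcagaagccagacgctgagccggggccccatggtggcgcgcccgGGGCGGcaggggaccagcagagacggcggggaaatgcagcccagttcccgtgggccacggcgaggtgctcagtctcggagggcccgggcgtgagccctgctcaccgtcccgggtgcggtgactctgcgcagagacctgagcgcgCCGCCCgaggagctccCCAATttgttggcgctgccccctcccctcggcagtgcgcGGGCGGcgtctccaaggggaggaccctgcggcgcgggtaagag
Col18a1 upstream start, chr10:77166481-77166780, minus strand: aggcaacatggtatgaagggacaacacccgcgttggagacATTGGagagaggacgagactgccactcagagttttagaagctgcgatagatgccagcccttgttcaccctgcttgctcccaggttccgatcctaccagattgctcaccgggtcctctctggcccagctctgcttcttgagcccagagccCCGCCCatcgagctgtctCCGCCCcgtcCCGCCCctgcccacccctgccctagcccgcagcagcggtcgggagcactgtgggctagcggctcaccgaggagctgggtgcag
Col18a1 downstream start, chr10:77113656-77113955, minus strand: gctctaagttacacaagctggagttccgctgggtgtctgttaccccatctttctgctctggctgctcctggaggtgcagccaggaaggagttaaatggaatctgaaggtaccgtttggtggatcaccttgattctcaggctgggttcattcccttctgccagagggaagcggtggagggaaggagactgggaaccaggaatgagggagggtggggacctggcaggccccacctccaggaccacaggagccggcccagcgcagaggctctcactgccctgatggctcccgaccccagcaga
Col8a1, chr16:57754688-57754987, minus strand: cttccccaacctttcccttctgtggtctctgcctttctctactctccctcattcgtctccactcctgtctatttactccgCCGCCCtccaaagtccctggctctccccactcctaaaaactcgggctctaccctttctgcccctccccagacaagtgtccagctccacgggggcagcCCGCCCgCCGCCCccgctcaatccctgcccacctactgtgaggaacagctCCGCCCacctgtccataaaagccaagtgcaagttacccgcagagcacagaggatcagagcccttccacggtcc

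The table gave 35 windows for 32 of the 41 collagen genes, and Col1a1 and Col4a3 had no entry. The GC box was in 21 of the 35 collagen windows and in 35.7% of all 32851 windows. CCAAT was in 34.3% of collagen windows against 37.4% of all, TATAAA in 14.3% against 13.6%, CTTTGA in 22.9% against 16.0% and TGANTCA in 2.86% against 7.81%. The TATAAA of Col3a1 lay 117 bases before the start. The Col8a1 window held 4 GC boxes, the nearest beginning 23 bases before the start. These matches describe letters in the windows and say nothing of binding in these cells.

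The 5 libraries differed in how much collagen RNA they held and in which chains made it up. Summed over the collagen genes, FPKM was 746 and 740 in wt and 306, 501 and 1512 in null. The wt libraries were nearly equal, and the null libraries lay on both sides of them. The number of collagen genes listed was 31 and 30 in wt and 33, 34 and 36 in null. In 21 of the 41 genes FPKM reached 1 in some library, and 20 stayed below it everywhere. The most abundant collagen was Col1a1 in wt replicate 1, Col6a1 in wt replicate 2, Col18a1 in null replicate 1 and Col1a1 in null replicates 2 and 3. Col18a1 alone made up 58.5% of the collagen FPKM in null replicate 1, whereas the top gene made up 21.6% and 17.7% in the wt libraries. Total FPKM over all genes also differed, at 740786 and 771332 in wt and 584696, 581385 and 622125 in null, and rescaling each library to the same total turned the log2 ratio of the collagen sum from -0.27 to 0.07.

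**Figure D1:**
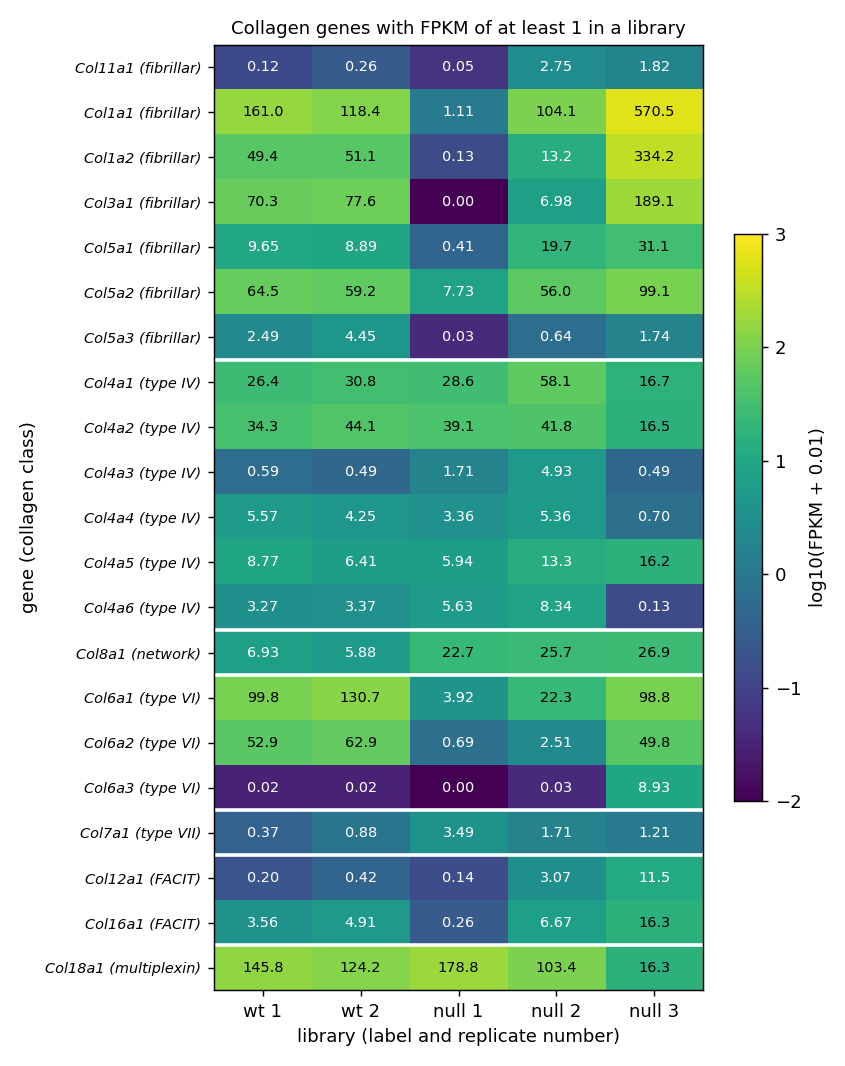
FPKM of the 21 collagen genes that reached 1 FPKM in a library, with genes in rows by class and libraries in columns, the printed number being FPKM and the color log10(FPKM + 0.01). The wt columns are alike, null 1 is dark for the fibrillar and type VI genes, and null 3 is brightest for Col1a1 at 570.48 and Col1a2 at 334.18.

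Fibrillar collagens carried the widest spread among the null libraries. Their summed FPKM was 358 and 320 in wt and 9.80, 203 and 1228 in null. The highest null library exceeded the lowest 125.3-fold, while the wt libraries differed 1.12-fold. Fibrillar genes made up 47.9% and 43.3% of the collagen FPKM in wt and 3.21%, 40.6% and 81.2% in null. The log2 ratio of null to wt was -1.33, with a two-sided p of 0.8 by an exact permutation test over libraries, whose 10 arrangements allow no p below 0.1. Without null replicate 1 the log2 ratio was 0.56.

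Col1a1, the main chain of type I collagen, had an FPKM of 161 and 118 in wt and 1.11, 104 and 570 in null. By FPKM null replicate 1 was 126-fold below the wt mean of 140 ± 30.1 (SD, n = 2). On that scale null replicate 2 was just below both wt libraries, and null replicate 3 was 4.08-fold above the wt mean. The TMM-scaled CPM was 919 and 775 in wt and 4.87, 407 and 2245 in null. Null replicate 2 was thus further below wt on the CPM scale, and null replicate 3 less far above. By FPKM rank among all genes of a library, Col1a1 was at 492 and 661 in wt and at 10259, 763 and 167 in null. Its log2 fold change was 0.06 (SE 1.66, adjusted p = 0.986 by the quasi-likelihood test of edgeR with Benjamini-Hochberg adjustment), and its sign was negative with DESeq2, with limma on log2 FPKM and with the replicate number as a block.

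Col1a2, the second chain of type I, had an FPKM of 49.4 and 51.1 in wt and 0.13, 13.2 and 334 in null. The null libraries ran from 386-fold below the wt mean to 6.65-fold above it. The FPKM ratio of Col1a1 to Col1a2, whose products join in type I collagen, was 3.26 and 2.32 in wt and 8.54, 7.88 and 1.71 in null. Null replicates 1 and 2 thus had relatively less Col1a2 than the other libraries. The log2 fold change of Col1a2 was 0.57 (SE 2.06, adjusted p = 0.899 by edgeR with Benjamini-Hochberg adjustment), and it was negative with limma and with the block.

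Col3a1, the chain of type III collagen found beside type I in soft connective tissue, had an FPKM of 70.3 and 77.6 in wt, was not listed in null replicate 1, and had 6.98 and 189 in null replicates 2 and 3. Against a floor of 3 counts in that library, null replicate 1 was at least 4193-fold lower than the mean CPM of the wt libraries without TMM scaling, and at least 5820-fold lower with it. Null replicate 2 was 10.6-fold below the wt mean FPKM and null replicate 3 was 2.56-fold above it. The groups overlapped, and the log2 fold change was -0.82 (SE 2.30, adjusted p = 0.867 by edgeR with Benjamini-Hochberg adjustment).

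Type V collagen regulates the diameter of type I fibrils, and its chains did not move alike. Col5a2 had an FPKM of 64.5 and 59.2 in wt and 7.73, 56.0 and 99.1 in null. Col5a1 had 9.65 and 8.89 in wt and 0.41, 19.7 and 31.1 in null. Both were lowest in null replicate 1 and highest in null replicate 3. In null replicate 2, by FPKM, Col5a2 was just below the wt libraries while Col5a1 was 2.12-fold above their mean. By TMM-scaled CPM, Col5a2 was at 308 in null replicate 2 against 518 and 545 in wt. The FPKM ratio of Col5a1 to Col5a2 was 0.150 in each wt library and 0.0530, 0.351 and 0.314 in null. Col5a3 had 2.49 and 4.45 in wt and 0.03, 0.64 and 1.74 in null, so it was below both wt libraries in every null library, with a log2 fold change of -2.78 (SE 1.28, adjusted p = 0.297 by edgeR with Benjamini-Hochberg adjustment).

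Of the other fibrillar genes, Col11a1, a cartilage chain that can also join type V, had an FPKM of 0.12 and 0.26 in wt and 0.05, 2.75 and 1.82 in null. Null replicates 2 and 3 were 14.5-fold and 9.58-fold above the wt mean, and null replicate 1 was below it. Col2a1, the cartilage collagen, was between 0.01 and 0.31, and Col11a2, Col24a1 and Col27a1 were at 0.08 FPKM or less in every library.

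**Figure D2:**
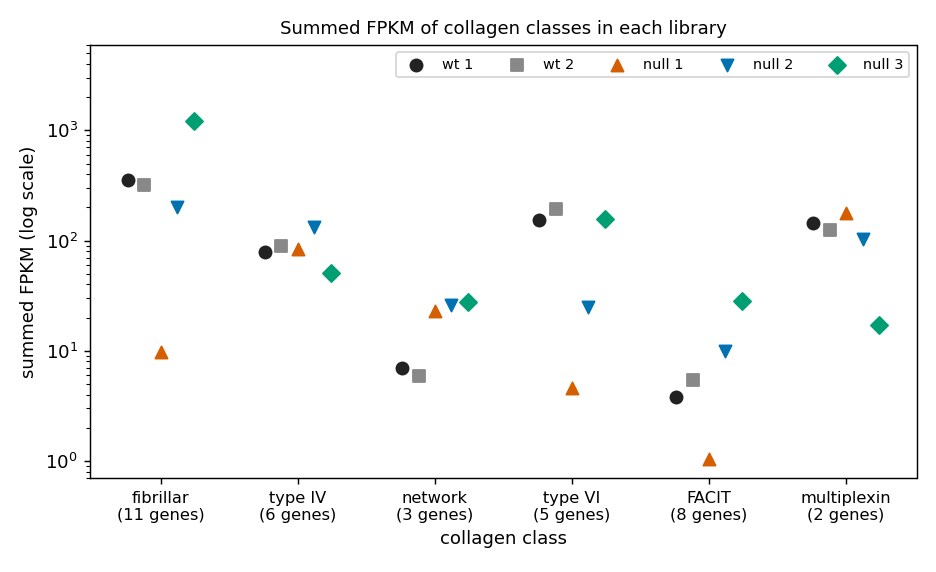
Summed FPKM of 6 collagen classes on a log axis, 1 point per library. The wt points lie close together in every class, the null points of the fibrillar class run from 9.80 to 1228, and in the network class all 3 null points (23.1 to 27.9) lie above both wt points (6.96 and 5.88).

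Type VI collagen, a filament that links fibrils to basement membranes, was lower in null replicates 1 and 2. In null replicate 3 it was near the wt level by FPKM. Its summed FPKM was 153 and 194 in wt and 4.61, 24.9 and 157 in null (log2 ratio -2.71, exact permutation test over libraries, two-sided p = 0.3). Col6a1 had an FPKM of 99.8 and 131 in wt and 3.92, 22.3 and 98.8 in null. Col6a2 had 52.9 and 62.9 in wt and 0.69, 2.51 and 49.8 in null. Every null library was below both wt libraries for either chain. By FPKM null replicate 3 was only 1.17-fold and 1.16-fold below the wt means. The gap was larger by TMM-scaled CPM, at 329 against a wt mean of 603 for Col6a1 and 155 against 282 for Col6a2. The log2 fold change was -2.12 for Col6a1 (SE 1.09, adjusted p = 0.338) and -2.36 for Col6a2 (SE 1.5, adjusted p = 0.422), both by the quasi-likelihood test of edgeR with Benjamini-Hochberg adjustment.

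The third classical chain, Col6a3, was nearly absent outside 1 library. Its counts were 7 and 6 in wt, with none listed for null replicate 1, then 9 for null replicate 2 and 2514 for null replicate 3. At an FPKM of 8.93 against a wt mean of 0.02, null replicate 3 was 446-fold higher, and by TMM-scaled CPM, at 70.3 against 0.27, it was 261-fold higher. The filter on low counts left Col6a3 out of the test because a single library passed it. The FPKM ratio of Col6a1 to Col6a2 was 1.89 and 2.08 in wt, 5.68 and 8.88 in null replicates 1 and 2, and 1.99 in null replicate 3, so that the library with Col6a3 had the wt ratio of the other chains. In null replicate 3 the 9024-base transcript carried 79.8% of the Col6a3 FPKM and a 10845-base transcript the rest. Col6a4 and Col6a5 stayed at 0.04 FPKM or less.

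Type IV collagen kept within a narrower range than the fibrillar class. Its summed FPKM was 78.9 and 89.5 in wt and 84.4, 131.8 and 50.8 in null. Null replicate 3, which had the most fibrillar collagen RNA, had the least type IV, and type IV made up 10.6% and 12.1% of the collagen FPKM in wt and 27.6%, 26.3% and 3.36% in null. The log2 ratio was -0.02 (exact permutation test over libraries, two-sided p = 1.0), and it was 0.32 with each library rescaled to the same FPKM total.

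Col4a1 and Col4a2, the chains of the common basement membrane network, start 21 bases apart on opposite strands of chromosome 8, and 78 bases of their printed windows are shared. Col4a1 had an FPKM of 26.4 and 30.8 in wt and 28.6, 58.2 and 16.7 in null. Col4a2 had 34.3 and 44.1 in wt and 39.1, 41.8 and 16.5 in null. The FPKM ratio of Col4a1 to Col4a2 was 0.769 and 0.698 in wt and 0.732, 1.39 and 1.01 in null. Null replicate 1 matched the wt libraries for either gene, at 1.00-fold of each wt mean by FPKM, although its fibrillar genes were far below. After TMM scaling Col4a2 CPM was below both wt libraries in every null library, with a log2 fold change of -0.86 (SE 0.54, adjusted p = 0.416 by edgeR with Benjamini-Hochberg adjustment), whereas by FPKM the groups overlapped.

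Of the tissue-restricted type IV chains, Col4a3, Col4a4 and Col4a6 varied more than Col4a1 and Col4a2. For Col4a5 the highest library exceeded the lowest 2.73-fold, against 3.47-fold for Col4a1 and 2.67-fold for Col4a2. Col4a5 had an FPKM of 8.77 and 6.41 in wt and 5.94, 13.3 and 16.2 in null. Its neighbour Col4a6, which starts 1343 bases away on the opposite strand of the X chromosome, had 3.27 and 3.37 in wt, 5.63 and 8.34 in null replicates 1 and 2, and 0.13 in null replicate 3. In that last library Col4a6 was 25.5-fold below the wt mean while Col4a5 was 2.14-fold above it, and the FPKM ratio of Col4a5 to Col4a6 was 124.8 against 1.06 to 2.68 elsewhere. A 6331-base Col4a5 transcript made up 2.51% and 19.7% of that gene's FPKM in wt and 35.0%, 7.06% and 32.2% in null.

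Col4a3 and Col4a4 encode chains of the network known from kidney glomeruli. Col4a3 had an FPKM of 0.59 and 0.49 in wt and 1.71, 4.93 and 0.49 in null. Col4a4 had 5.57 and 4.25 in wt and 3.36, 5.36 and 0.70 in null. Null replicate 2 was 9.13-fold above the wt mean for Col4a3, and null replicate 3 was 7.01-fold below it for Col4a4. After TMM scaling every null library was below both wt libraries for Col4a4, with a log2 fold change of -1.21 (SE 0.79, adjusted p = 0.431 by edgeR with Benjamini-Hochberg adjustment), and by FPKM the groups overlapped.

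Col18a1 encodes the type XVIII chain, whose C-terminal fragment is endostatin. Its FPKM was 146 and 124 in wt and 179, 103 and 16.3 in null. Null replicate 3 stood 8.29-fold below the wt mean of 135 ± 15.3 (SD, n = 2), and its rank by FPKM was 4210, against 498 to 767 in the other 4 libraries. The direction by FPKM was thus opposite to Col1a1 in null replicates 1 and 3, and by TMM-scaled CPM in null replicate 3 alone. By TMM-scaled CPM every null library was below both wt libraries, with a log2 fold change of -0.97 (SE 0.88, adjusted p = 0.564 by edgeR with Benjamini-Hochberg adjustment), while by FPKM null replicate 1 was the highest of the 5.

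The files list 2 Col18a1 transcripts, which begin at the upstream and downstream windows printed above, 52825 bases apart. The 5058-base transcript, whose start lies 18 bases from the upstream one, made up at least 99.8% of the gene's FPKM in 4 libraries. The 5642-base transcript, which begins at the downstream start, had 49.8 and 8.28 estimated counts in wt, was not listed in null replicate 1, and had 8.21 and 363 in null replicates 2 and 3. In null replicate 3 it made up 13.2% of the FPKM, and the transcript from the upstream start made up 86.8%. The upstream window held 3 GC boxes and a CCAAT in reverse, and the downstream window held none of the 5 motifs. The other multiplexin, Col15a1, had an FPKM of 0.01 in wt replicate 1, was not listed in wt replicate 2, and had 0.09, 0.01 and 0.90 in null.

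Col8a1 was the abundant collagen with the clearest separation between the groups. It encodes a chain of type VIII, a short-chain collagen known from the membranes beneath endothelial cells. Its FPKM was 6.93 and 5.88 in wt and 22.7, 25.7 and 26.9 in null, or 6.40 ± 0.742 (SD, n = 2) against 25.1 ± 2.17 (SD, n = 3). Each null library was 3.54 to 4.20-fold above the wt mean, and the gap was larger than the spread within either group. Its log2 fold change was 1.39 (SE 0.40, adjusted p = 0.193 by the quasi-likelihood test of edgeR with Benjamini-Hochberg adjustment), and with DESeq2 it was 1.30 (adjusted p = 0.0151). Over the alternatives the adjusted p ran from 0.0151 to 0.841.

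Col8a2, the partner chain, was not listed in either wt library and had 55, 30 and 103 counts in null. Against a floor of 3 counts in each wt library, the mean TMM-scaled CPM of the null libraries was at least 14.4-fold higher, and without TMM scaling it was at least 21.6-fold higher. Its adjusted p was 0.180 by edgeR and 0.00192 by DESeq2, each with Benjamini-Hochberg adjustment. Its level was low at 0.42, 0.23 and 0.80 FPKM, and the gene passed the filter on low counts only through the null libraries. The short-chain sum, in which Col8a1 is nearly all, had a log2 ratio of 2.00 (exact permutation test over libraries, two-sided p = 0.1, the smallest that 10 arrangements allow). Col10a1, the chain of hypertrophic cartilage, reached at most 0.16 FPKM.

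Among the FACIT collagens, Col16a1 was the most abundant in 4 libraries and Col20a1 in null replicate 1. Col16a1 had an FPKM of 3.56 and 4.91 in wt and 0.26, 6.67 and 16.3 in null. Col12a1, which binds type I fibrils, had 0.20 and 0.42 in wt and 0.14, 3.07 and 11.5 in null. Both followed the order of the abundant fibrillar genes, lowest in null replicate 1 and highest in null replicate 3. The FACIT sum was 3.82 and 5.48 in wt and 1.05, 10.0 and 28.1 in null (log2 ratio 0.54, exact permutation test over libraries, two-sided p = 0.8). Col20a1 reached at most 0.33 FPKM, Col22a1 0.17, and Col9a1, Col9a2, Col9a3 and Col14a1 0.13 or less.

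Col7a1, the chain of anchoring fibrils beneath stratified epithelia, had an FPKM of 0.37 and 0.88 in wt and 3.49, 1.71 and 1.21 in null. By FPKM all 3 null values exceeded both wt values, with the highest in null replicate 1, and the groups overlapped after TMM scaling. Of the transmembrane chains, Col23a1 reached 0.79 FPKM in null replicate 3 and 0.05 or less elsewhere, Col13a1 reached 0.17 and Col17a1 0.05. Col28a1 was listed in null replicate 3 alone, with 42 counts, and Col26a1 was at 0.01 FPKM or less.

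**Figure D3:**
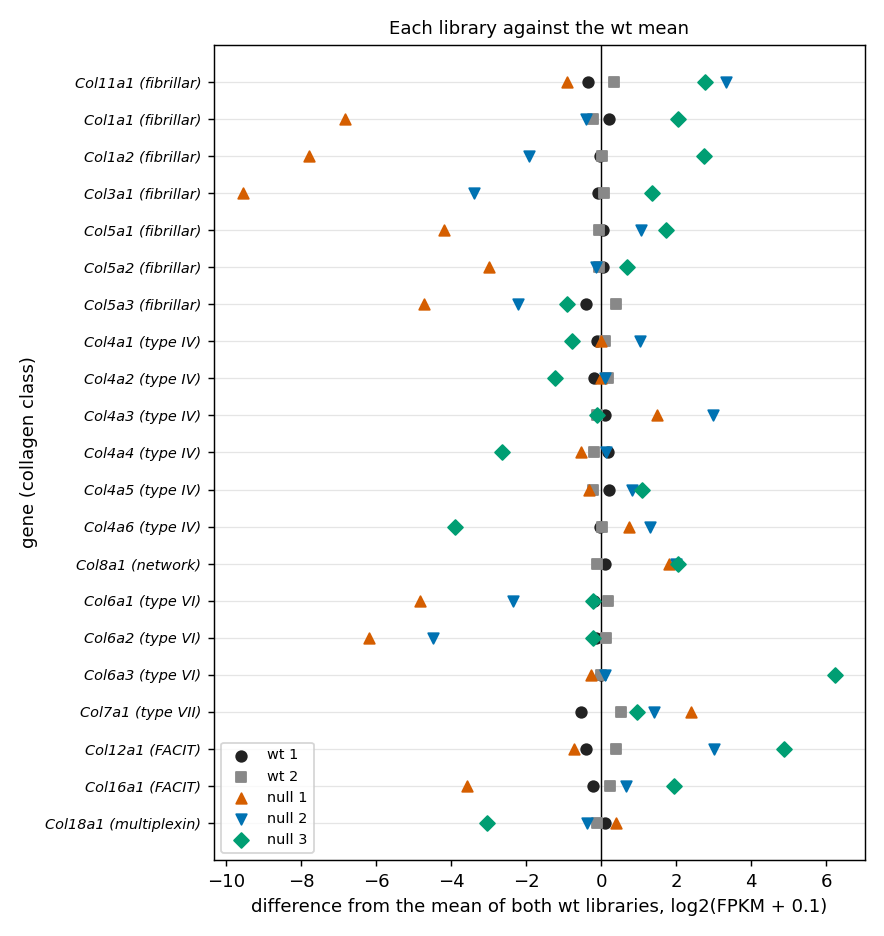
Difference of each library from the mean of the wt libraries on log2(FPKM + 0.1) for the 21 collagen genes that reached 1 FPKM, 1 marker per library. The wt markers stay near 0, the null markers spread to both sides for most genes, and for Col8a1 the 3 null markers fall together near 2.

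The null libraries were next compared with wt 1 at a time, and their departures were shared in part. A gene was counted when it was at least 4-fold above or below the nearer wt library on log2(FPKM + 0.1), over the 12217 genes, among them 21 collagen genes, that reached 1 FPKM in some library. In null replicate 1, 9 of 21 collagen genes were lower by this measure (42.9%, against 3.86% of all genes), and they were Col1a1, Col1a2, Col3a1, Col5a1, Col5a2, Col5a3, Col6a1, Col6a2 and Col16a1. None was higher, against 13.6% of all genes. In null replicate 2, Col3a1, Col6a1 and Col6a2 were lower (14.3%, against 2.78%) and Col4a3, Col11a1 and Col12a1 were higher (14.3%, against 12.9%). In null replicate 3, Col4a4, Col4a6 and Col18a1 were lower (14.3%, against 2.22%) and Col1a2, Col6a3, Col11a1 and Col12a1 were higher (19.0%, against 15.0%). Col3a1, Col6a1 and Col6a2 were thus lower in null replicates 1 and 2, Col11a1 and Col12a1 were higher in null replicates 2 and 3, and no collagen gene was lower in all 3 or higher in all 3. Col4a3, Col6a3, Col11a1 and Col12a1 were under 1 FPKM in both wt libraries and entered the set only through null libraries where they were high, so their counts as higher, shared or not, are no support. These counts compare single libraries and carry no test. How many of all genes departed in the same null libraries is not given here, so the sharing has no background share beside it.

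The median difference from wt on the same scale was -0.72, 0.14 and 0.95 over the 21 collagen genes in null replicates 1 to 3, and 0.54, 0.61 and 0.72 over all 12217 genes. For the 7 fibrillar genes it was -4.72, -0.41 and 1.74, and for the 6 type IV genes it was 0.01, 0.92 and -1.0. Col4a3, Col6a3, Col7a1, Col11a1 and Col12a1 were under 1 FPKM in both wt libraries and entered only through null libraries. Medians that include them are therefore no support for higher values, and the 0.95 of null replicate 3 is the value of Col7a1 itself. Likewise the -0.72 of null replicate 1 is the value of Col12a1 itself, so it too rests on a gene under 1 FPKM in both wt libraries. Between the wt libraries the median absolute difference was 0.25 over the collagen genes and 0.40 over all genes. The wt libraries, which share a line name and passage number and differ in TSH, were furthest apart for Col7a1, at 1.06.

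In the fit across all genes, no collagen gene passed an adjusted p of 0.05. Of 26 collagen genes tested among 13240 genes, 0 were called by the quasi-likelihood test of edgeR with Benjamini-Hochberg adjustment (0% of all genes), with a lowest adjusted p of 0.180 among collagen genes and 0.0845 among all genes. At an unadjusted p under 0.05, 3 were higher in null, Col8a1, Col8a2 and Col15a1 (11.5%, against 12.4% of all genes), and none was lower (against 6.07%). With DESeq2 and an adjusted p under 0.05, Col8a1 and Col8a2 were higher (7.69%, against 8.41%) and none was lower (against 3.68%). DESeq2 gave no adjusted p for Col1a2 and Col3a1, which stay among the 26 as not called. By TMM-scaled CPM, every null library was above every wt library in 3 collagen genes (11.5%, against 22.6%) and below in 6 (23.1%, against 17.3%), the latter being Col18a1, Col4a2, Col4a4, Col5a3, Col6a1 and Col6a2. By FPKM, Col5a3, Col6a1 and Col6a2 were below (11.5%, against 7.22% of all genes) and Col7a1, Col8a1 and Col8a2 above (11.5%, against 35.9%). Col15a1 and Col8a2 passed the filter only through the null libraries, so their counts as higher are no support.

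By sign, 15 of the 26 were higher and 11 lower, with a median log2 fold change of 0.14 against 0.29 over all genes tested. The higher ones include Col8a2, Col15a1, Col20a1 and Col27a1, which passed the filter only through the null libraries. The tally and the median are therefore no support for a direction. The standard error had a median of 1.28 over the collagen genes tested and 0.67 over all genes. Scaling shifted all genes: the median log2 fold change of all genes was 0.29 with TMM, 0.21 with DESeq2 size factors and 0.61 with limma on log2(FPKM + 0.1). The 15 genes not tested were under the count filter in all libraries or passed it in a single one, and of these Col6a3, Col23a1 and Col28a1 had 2514, 134 and 42 counts in null replicate 3.

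**Figure D4:**
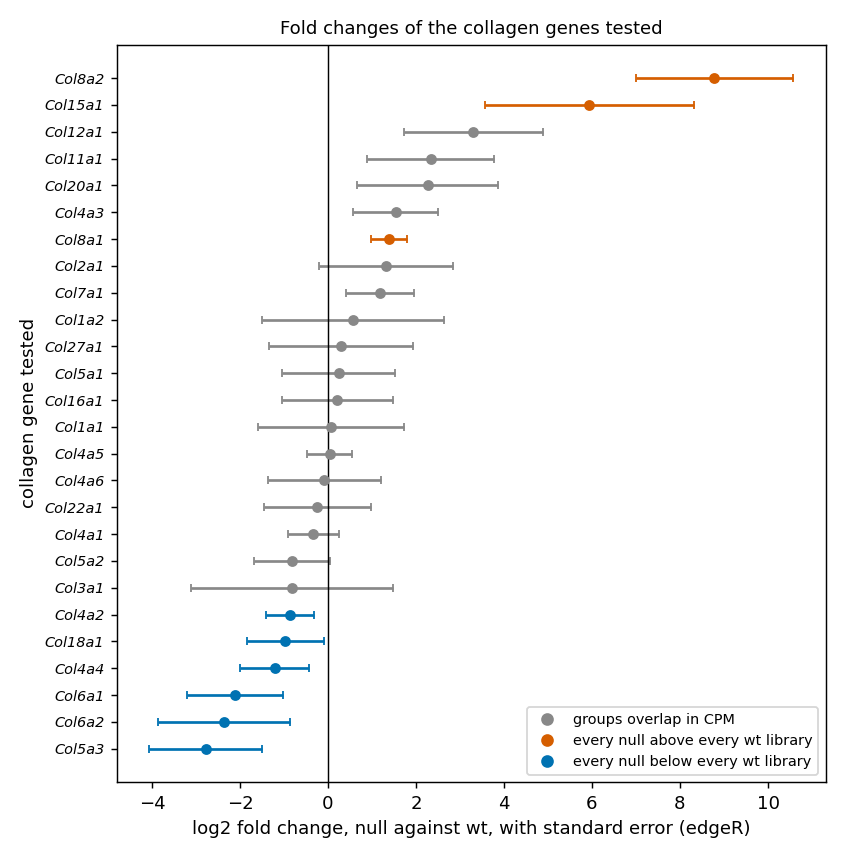
Log2 fold change of null against wt by edgeR for the 26 collagen genes tested, with standard errors as bars and color showing whether the groups overlap in TMM-scaled CPM. Bars of Col1a1, Col1a2 and Col3a1 span 0 widely (SE 1.66 to 2.30), Col8a1 has a narrow bar above 0 (SE 0.40), and the fitted value of Col8a2 has wt counts of 0 behind it and is no measure of size.

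Genes that make, export and cross-link collagen were listed by function, and 54 of 55 were listed in a library and 49 tested. None passed an adjusted p of 0.05 by edgeR with Benjamini-Hochberg adjustment, 6 were lower (12.2%, against 6.07% of all genes) and 3 higher (6.12%, against 12.4%) at an unadjusted p under 0.05, and the median log2 fold change was -0.26 against 0.29 over all genes tested. With DESeq2, Ppib, Serpinh1 and Itga2 had adjusted p-values of 0.0143, 0.0354 and 0.00648, which makes 2 lower (4.08%, against 3.68% of all genes) and 1 higher (2.04%, against 8.41%). In TMM-scaled CPM, 13 were below both wt libraries in every null library (26.5%, against 17.3% of all genes) and 5 above (10.2%, against 22.6%). By FPKM, where more of all genes were above and fewer below, 6 were below (12.2%, against 7.22%) and 8 above (16.3%, against 35.9%). Among those above on either scale, Adamts3 (0 and 3 counts in wt) passed the count filter only through the null libraries and P3h2 reached it in 1 wt library, so their counts as above are no support. The median was -0.47 for the hydroxylases and glycosyltransferases, 0.56 for folding and export, -0.61 for procollagen processing, -0.36 for crosslinking, 0.52 for the receptors and 0.64 for the collagenases.

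The counts of single lists below, of at most 14 genes each, are to be read against the same shares of all genes, 6.07% lower and 12.4% higher at an unadjusted p under 0.05. Among the hydroxylases and glycosyltransferases, 14 of 15 were tested and 3 were lower and none higher at an unadjusted p under 0.05. P4hb, the disulfide isomerase subunit of prolyl 4-hydroxylase, was the most abundant, with an FPKM of 656 and 1241 in wt and 348, 413 and 883 in null. Ppib, the isomerase of the prolyl 3-hydroxylation complex, had 632 and 734 in wt and 240, 396 and 451 in null, below both wt libraries in every null library. Plod1, a lysyl hydroxylase, had 48.6 and 54.5 in wt and 9.13, 27.6 and 39.2 in null. The log2 fold changes were -1.43 (SE 0.55) for P4hb, -1.53 (SE 0.42) for Ppib and -1.65 (SE 0.60) for Plod1, with adjusted p-values of 0.248, 0.192 and 0.231 by edgeR. Colgalt1, which adds galactose to hydroxylysine, had 115 and 143 in wt and 95.2, 109.5 and 112.1 in null.

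Of the folding and export genes, 8 of 9 were tested, with 1 lower and 1 higher at an unadjusted p under 0.05. Serpinh1, the collagen chaperone HSP47, had an FPKM of 1192 and 1023 in wt and 260, 712 and 690 in null. It was below both wt libraries in every null library, including null replicate 3 with its high fibrillar sum, with a log2 fold change of -1.61 (SE 0.48, adjusted p = 0.195 by edgeR with Benjamini-Hochberg adjustment). Fkbp10, an isomerase acting on procollagen, had 74.1 in each wt library and 35.0, 97.4 and 97.4 in null. On the scale of TMM-scaled CPM its direction differed, at 234 and 268 in wt and 85.3, 211 and 212 in null. Every null library was thus below both wt libraries on that scale, with a log2 fold change of -0.57 (SE 0.51, adjusted p = 0.566 by edgeR with Benjamini-Hochberg adjustment). Mia3, a receptor that loads procollagen for export, was the 1 higher, at 0.94 and 0.79 in wt and 2.81, 3.78 and 3.01 in null.

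Of the procollagen processing genes, 7 of 8 were tested and 1 was lower at an unadjusted p under 0.05. That gene, Pcolce, the enhancer of the C-proteinase, had an FPKM of 320 and 358 in wt and 143, 253 and 283 in null (log2 fold change -1.19, SE 0.43, adjusted p = 0.229 by edgeR). All 7 crosslinking genes were tested and none had an unadjusted p under 0.05. Tgm2, a transglutaminase, had 79.0 and 78.3 in wt and 73.5, 85.9 and 69.0 in null. Loxl2, a lysyl oxidase, had 33.5 and 47.7 in wt and 7.21, 22.9 and 36.5 in null, and Loxl3 had 13.7 and 20.8 in wt and 5.0, 17.5 and 18.4 in null. The groups overlapped by FPKM for Loxl2 and Loxl3, while by TMM-scaled CPM every null library was below both wt libraries for either gene. Lox, the founding lysyl oxidase, had 24.6 and 50.6 in wt and 0.95, 20.7 and 119 in null, the same order as Col1a1 within the null group. Loxl1 was the most abundant of the list in null replicate 3, at 119.

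Of the collagen receptors, Gp6 was not listed, 8 were tested and 2 were higher at an unadjusted p under 0.05. Itgb1, the shared β chain of the collagen-binding integrins, had an FPKM of 61.8 and 41.3 in wt and 88.8, 234 and 286 in null (log2 fold change 1.38, SE 0.56, adjusted p = 0.262 by edgeR). Itga2 had 0.14 and 0.12 in wt and 7.28, 1.33 and 0.79 in null. Ddr1, the epithelial collagen-binding tyrosine kinase, was the most abundant receptor in null replicate 1, at 96.1, with 12.96 and 17.9 in wt and 28.1 and 25.4 in null replicates 2 and 3. Its relative Ddr2, found in mesenchymal cells, had 5.14 and 3.11 in wt and 0.01, 14.2 and 14.2 in null. Mrc2, which takes up collagen fragments, had 34.6 and 39.8 in wt and 0.03, 8.58 and 38.3 in null.

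Of the collagenases, 5 of 6 were tested and 1 was lower at an unadjusted p under 0.05. Mmp2, a gelatinase, had an FPKM of 80.9 and 77.9 in wt and 7.87, 51.1 and 5.65 in null (log2 fold change -2.50, SE 0.93, adjusted p = 0.236 by edgeR). Null replicate 3 was thus the lowest for Mmp2 and the highest for Col1a1. Mmp14, the membrane-bound collagenase, was the most abundant of the list in all 3 null libraries, at 70.8, 54.2 and 40.5 against 33.6 and 41.5 in wt.

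**Figure D5:**
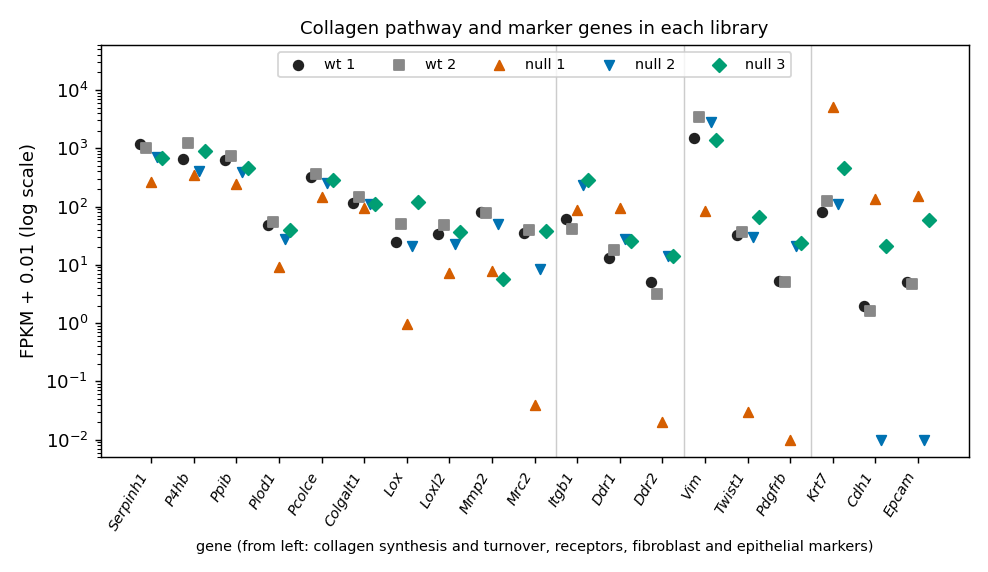
FPKM + 0.01 on a log axis of 19 genes in each library, from left collagen synthesis and turnover, collagen receptors, fibroblast markers and epithelial markers. Null 1 is the lowest point for Serpinh1, Lox and Vim and the highest for Ddr1, Krt7, Cdh1 and Epcam, and null 2, where Cdh1 and Epcam were not listed, is drawn at 0.01 for both.

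Markers of cell types also differed between the lines, and their order was not that of the fibrillar sum in every list. In bulk RNA, fewer cells of a type and less RNA per cell cannot be told apart. The labels call the cells thyroid epithelial cells. Thyroid follicular markers summed to 15.3 and 20.6 FPKM in wt and 35.2, 68.5 and 4.83 in null over 10 genes, with Nkx2-1 or Pax8 on top, Tg between 0.04 and 0.86, and Tshr, Foxe1 and Duox2 at 0.11 or less. The 12 fibroblast markers summed to 1560 and 3485 in wt and 87.2, 2971 and 1837 in null, of which Vim, the most abundant, had 1478 and 3406 in wt and 85.1, 2864 and 1401 in null. Twist1, a mesenchymal transcription factor, had 32.5 and 36.1 in wt and 0.02, 30.4 and 65.0 in null, and Pdgfrb was not listed in null replicate 1. Dcn, Thy1 and Postn, at 84.7, 88.5 and 102 FPKM in null replicate 3, were at 0.24 or less in the other 4 libraries, and Fap and Lum reached at most 0.27 and 0.14.

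The 11 epithelial markers ran the other way in null replicate 1. They summed to 1110 and 1786 in wt and 14168, 706 and 1467 in null. Krt7, the keratin on top in null replicates 1 and 3, had 79.7 and 124 in wt and 5131, 111 and 461 in null, while Krt8 and Krt18 were on top elsewhere. Cdh1, the epithelial cadherin, had 1.94 and 1.62 in wt, 136 and 20.9 in null replicates 1 and 3, and was not listed in null replicate 2, nor was Epcam. Acta2, the most abundant smooth muscle and pericyte marker in 4 libraries, had 81.9 and 71.3 in wt, was not listed in null replicate 1 and had 192 and 942 in null replicates 2 and 3, in the same order as Col1a1 in the null group, with Des on top in null replicate 1. The 8 endothelial markers summed to 0.80 or less in every library. Of the immune markers, Ptprc, Adgre1 and Cd3e were not listed, and Cd68 was on top at 6.09 and 14.2 in wt and 59.8, 1.00 and 39.9 in null. Over the marker lists no gene passed an adjusted p of 0.05 by edgeR, while 2 of the 33 tested, Pax8 and Krt7, were higher by DESeq2 (6.06%, against 8.41% of all genes; adjusted p = 7.72e-05 and 0.0493). Pax8 and Postn were higher in null at an unadjusted p under 0.05 by edgeR (6.06%, against 12.4%), and none was lower (against 6.07%). Postn was not listed in wt, passed the filter only through the null libraries and had nearly all its counts in null replicate 3. The part of these cell type markers in the collagen differences was not tested.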

How the data were processed

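RNA of 5 cultured mouse thyroid tumor cell libraries was sequenced from TruSeq libraries on an Illumina HiSeq instrument, and the aligner, counter, genome build and annotation are not given in the sources used here. For each RefSeq transcript with an FPKM of at least 0.01, the authors deposited an FPKM value, scaled to length and depth, and an estimated count that can hold fractions. Replicates were not pooled. The study's text speaks of 3 biological replicates, and 2 wt libraries were analysed here. Whether counting used strand is not stated, and Col4a1 and Col4a2 overlap head to head.

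Estimated counts and FPKM were summed per NCBI gene number, and counts were rounded to whole numbers. Symbols were matched for 17866 genes and not for 57. A floor of 3 counts was about 0.10 CPM in each library, and it covers counting error only. edgeR 4.0.16 in R 4.3.3 was used with TMM, filterByExpr by group and the quasi-likelihood test, over 13240 genes with Benjamini-Hochberg adjustment. The SE of an edgeR fold change was not given by the fit. It was calculated as the absolute log2 fold change divided by the square root of the F statistic of that test. Class sums were compared by an exact permutation test over libraries. Alternatives were DESeq2 1.42.0, limma 3.58.1 on log2 FPKM plus 0.1, 0.01 or 1, no filter, 10 or more counts in every library, rescaled FPKM, leaving out each library, and the replicate number as a block. The scripts were tested on simulated data, in which the spread between libraries of a group was smaller than the fit found here. Motifs were searched in RefSeq promoter windows of 300 bases, and Col18a1 transcript starts were taken from GENCODE M21 through its RefSeq cross-references.

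The collagen genes, their classes and the pathway and marker lists were chosen with earlier results of these data known. Collagen genes that reached 10 FPKM in a library are given in every library and all others are named. For pathway lists, genes reaching 20 FPKM in a library whose groups did not overlap or with an unadjusted p under 0.05 are named, up to 4 per list, with the most abundant gene of each list. For markers, the most abundant gene and defining markers at 0 are named. Lox, Ddr2, Twist1, Pdgfrb, Mia3, Itga2 and some markers with values were chosen after their values were seen.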

Additional observations from a re-analysis of the deposited data

How the results depend on the processing

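The directions of several class sums, and of Col1a1, Col1a2 and other collagen genes, turned under some alternatives. The log2 ratio of summed FPKM was -0.27 for all collagens and ran from -0.92 to 0.228 when 1 library was left out (0.23 without null replicate 1). It ran from -2.92 to 0.56 for fibrillar genes (0.56 without null replicate 1), -0.36 to 0.33 for type IV (0.33 without null replicate 3 and 0.07 without wt replicate 2), -0.50 to 1.87 for FACIT (-0.50 without null replicate 3) and -1.67 to 0.0155 for multiplexins (0.0155 without null replicate 3). With FPKM rescaled to the same total the ratio was 0.0687 for all collagens and 0.32 for type IV, and without Col4a2 the type IV ratio was 0.21. No ratio could be had for the multiplexins without Col18a1, or for the short-chain network without Col8a1, because their remaining genes were not listed in wt replicate 2. The short-chain network was higher and type VI lower in null under each alternative run on their sums.

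DESeq2 gave 2 collagen genes and 3 pathway genes at an adjusted p under 0.05, against 0 with edgeR, and was the only alternative to call Col8a1 (1.30) and Col8a2 (7.79). At an unadjusted p under 0.05, 1 collagen gene was higher with at least 10 counts in every library and with limma at each pseudocount (0.1, 0.01 and 1), against 3, and 1 to 4 were higher when a library was left out. The shares of all genes higher were 13.4% with at least 10 counts, 19.1%, 19.6% and 16.6% with limma, and 2.20% to 16.1% when a library was left out. Lower at that threshold were 2 with DESeq2 (8.49% of all genes), 1 with no filter (5.14%), 2 with limma at a pseudocount of 1 (2.83%), and 0 to 3 when a library was left out (2.02% to 11.5%), against 0. Over the collagen genes tested the median log2 fold change was 1.11 with no filter, -0.54 and -0.68 with limma at pseudocounts of 0.1 and 0.01, and -0.52 to 1.03 when a library was left out, against 0.14. The FACIT median was 2.28 with no filter, 0.34 with limma and no filter, and -0.0461 to 2.09 when a library was left out, against 1.24. The FACIT genes behind 1.24 were Col12a1 (3.30), Col20a1 (2.27), Col16a1 (0.22) and Col22a1 (-0.24). Col20a1, with 5 and 1 counts in wt, passed the filter only through null libraries, so FACIT medians that include it are no support. Collagen genes with every null library above wt numbered 1 with at least 10 counts everywhere (21.8% of all genes) and 4 to 7 of 26 when a library was left out (28.2% to 32.5% of all genes), against 3. Those below numbered 3 by FPKM (7.22% of all genes) and 6 to 10 when a library was left out (22.4% to 26.8%), against 6. Leaving out a library raised these shares over all genes as well. The log2 fold change of Col1a1 was -0.0291 with DESeq2, -1.73, -1.77 and -1.47 with limma at pseudocounts of 0.1, 0.01 and 1, -1.73 with limma and no filter, and -2.05 to 0.60 when a library was left out. That of Col1a2 was -2.32, -2.56, -1.55 and -2.32 with the same limma fits and -3.57 to 1.09 when a library was left out. The causes were not tested. The sign of the log2 fold change also turned under some alternative for Col2a1, Col4a1, Col4a5, Col4a6, Col5a1, Col16a1, Col22a1 and Col27a1. Over the alternatives Col5a1 ran from -2.24 to 0.78, against 0.24, and Col16a1 from -2.18 to 0.74, against 0.22. For the single genes followed most closely, which were only some of those tested, 128 other values kept direction and side of the threshold.

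With the replicate number as a block, in which null replicate 3 has no partner and takes no part, the collagen genes at an unadjusted p under 0.05 were 1 higher and 6 lower (7.15% and 4.15% of all genes), the median was -5.09 for type VI (against -2.24) and 0.45 for FACIT, and the log2 fold change was -4.23 for Col1a1 and -5.71 for Col1a2. Deviations of same-numbered libraries from their group means correlated at -0.09 for each of the 2 pairs, so the numbers are not shown to pair the samples. With 2 and 3 libraries a group, no exact test on a class sum can go below p = 0.1.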
